A study of Mus musculus with 4 samples.

Results

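The clustered histone genes of mouse long-term haematopoietic stem cells (HSCs) were followed across 4 doses of γ-irradiation. The set took every gene of the expression table whose single symbol in the platform table began with Hist1h, Hist2h, Hist3h or Hist4h, or with H1f, H2ac, H2bc, H3c or H4c and a digit. It held 38 of 23185 genes with a symbol, namely 8 of class H1, 9 of H2A, 11 of H2B, 7 of H3 and 3 of H4. No filter on level was applied. RefSeq lists 70 genes whose symbols match the same rule, and those without a row were not analysed here.

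Lin- ckit+ Sca+ marrow cells were given 0, 0.02, 0.1 or 0.5 Gy and put into lethally irradiated mice, and LT-HSCs, gated as CD150+, CD48- and Flk2- within the Lin- ckit+ Sca+ compartment, were recovered from the recipients' marrow 6 months later. All groups, the unirradiated one included, therefore share a transplant into a lethally irradiated host. The labels give no donor marker in the gate, no strain, age or sex, and do not say whether mice were pooled. Each dose is a single array, so there is no spread within a dose, and every difference below is between single arrays with no replicate check and no test. The deposited values are taken as log2 intensities from their range, since the log base is not stated, and every fold change below rests on that reading. The array medians lay between 4.01 and 4.07. The number of arrays limits the precision, and there is no read depth. Values of different genes come from different probes, so only the same gene is compared between arrays.

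Histones are the proteins around which DNA is wrapped. H2A, H2B, H3 and H4 form the nucleosome core and H1, the linker histone, binds the DNA between cores. The clustered genes are switched on mainly in S phase, when new DNA must be packaged. Their mRNAs usually end in a stem-loop in place of a poly(A) tail, and this stem-loop is bound by the product of Slbp, which takes part in their processing, export and decay. LT-HSCs are known as a mostly quiescent population. In bulk samples such as these, fewer cells in S phase and less histone mRNA per cell cannot be told apart.

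The symbol rule also took genes outside this textbook class. H1f10 is a linker histone gene expressed independently of replication. H1f6, H1f7, H1f8, H2ac1 and H2bc1 are known as germ line histone genes. These 6 are kept below, and medians without them are given where they matter. Many clustered core histone genes of a class are nearly identical in their coding sequence, and all clustered H4 genes encode the same protein. The H1 genes and the germ line members are less alike. Probe sequences were not used here, so how far a probe set also measures its neighbours is unknown, and a difference between genes of 1 class is uncertain to that extent.

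In the reference annotation GRCm38.p6, 29 of the 38 genes lie on chromosome 13 in a pair of groups, 9 genes from 21715711 to 22042949 and 20 genes from 23531044 to 23934913. A further 6 lie together on chromosome 3 from 96219885 to 96270192. H1f8 and H1f10 lie apart on chromosome 6 and H1f7 on chromosome 15. Of the 7 genes at least 1.5-fold lower at 0.02 Gy, 4 lie together on chromosome 3, namely H2ac20, H2ac21, H2bc18 and H3c14, and H4c8 had the largest difference of the set, at 0.1 Gy. The sequences upstream of these 5 genes are shown for that reason. They are RefSeq promoter sequences of GRCm38.p6, written 5′ to 3′ on the gene's strand, ending at the base before the annotated start. Capitals mark matches on either strand to any of 3 motifs. CCAAT is the CCAAT box, read as ATTGG on the opposite strand. TATAA is the core of the TATA box, read as TTATA on the opposite strand, and overlapping matches on both strands are counted separately. ATTTGCAT is the octamer known from H2B promoters.
H2ac20, chr3:96220881-96221071, minus strand: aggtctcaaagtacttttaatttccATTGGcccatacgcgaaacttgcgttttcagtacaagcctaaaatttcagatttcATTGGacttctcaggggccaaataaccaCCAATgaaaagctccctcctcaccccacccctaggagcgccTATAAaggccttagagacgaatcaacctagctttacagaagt
H2ac21, chr3:96219635-96219884, plus strand: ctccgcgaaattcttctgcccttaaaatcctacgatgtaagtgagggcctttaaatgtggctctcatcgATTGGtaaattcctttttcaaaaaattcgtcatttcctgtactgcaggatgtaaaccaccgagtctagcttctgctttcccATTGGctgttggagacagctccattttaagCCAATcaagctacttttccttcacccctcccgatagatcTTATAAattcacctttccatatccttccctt
H2bc18, chr3:96269450-96269699, plus strand: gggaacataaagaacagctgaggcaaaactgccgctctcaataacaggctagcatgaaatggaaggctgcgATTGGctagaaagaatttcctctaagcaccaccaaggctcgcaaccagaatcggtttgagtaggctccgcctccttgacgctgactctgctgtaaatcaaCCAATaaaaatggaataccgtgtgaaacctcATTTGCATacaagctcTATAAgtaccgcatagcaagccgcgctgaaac
H3c14, chr3:96246435-96246684, plus strand: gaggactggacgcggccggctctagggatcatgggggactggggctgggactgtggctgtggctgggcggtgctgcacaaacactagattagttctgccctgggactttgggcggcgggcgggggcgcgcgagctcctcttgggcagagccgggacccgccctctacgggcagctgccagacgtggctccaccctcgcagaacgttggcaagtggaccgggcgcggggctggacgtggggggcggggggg
H4c8, chr13:23530794-23531043, plus strand: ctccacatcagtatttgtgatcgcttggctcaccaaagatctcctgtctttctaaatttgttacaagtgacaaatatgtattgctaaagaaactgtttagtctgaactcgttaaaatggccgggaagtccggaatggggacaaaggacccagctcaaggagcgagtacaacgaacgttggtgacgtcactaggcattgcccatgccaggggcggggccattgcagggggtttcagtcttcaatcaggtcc
The H2ac20 sequence is the whole stretch of 191 bases between H2ac20 and the neighbouring H2B gene H2bc21. It holds 3 CCAAT and 1 TATAA, and the ATTTGCAT of the longer window of H2ac20 lies beyond it. The H2ac21 sequence holds 3 CCAAT and 2 TATAA that overlap in a single TTATAA. The H2bc18 sequence holds 2 CCAAT, 1 TATAA and 1 ATTTGCAT. The letters of these motifs are not in the windows of H3c14 and H4c8.

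RefSeq promoters were matched for 34 of the 38 genes, and windows of 250 bases before the start were searched. CCAAT was in 27 of the 34 (79.4%), against 34.5% of 27025 promoters of all genes. TATAA was in 23 of the 34 (67.6%), against 23.5% of all promoters. ATTTGCAT was in 9 of the 34 (26.5%), against 1.61%. By class, CCAAT was in 9 of 9 H2A, 9 of 9 H2B, 6 of 8 H1, 3 of 5 H3 and 0 of 3 H4 windows. ATTTGCAT was in 5 of 9 H2A and 4 of 9 H2B windows and in 0 of the 16 others. Windows of neighbouring H2A and H2B genes can cover the same bases, so the counts of these classes are not independent. Only 179 bases lie between H2ac8 and H2bc8 and 234 between H2ac22 and H2bc22, so a match there can count in both classes. The window of H2ac20 runs past the 191 bases before H2bc21, and the ATTTGCAT counted for it lies beyond them. Among the 7 genes at least 1.5-fold lower at 0.02 Gy than at 0 Gy, 6 windows held CCAAT, 6 held TATAA and 3 held ATTTGCAT. A match describes the letters of a window and was not tested for binding.

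Histone genes were more often lower than higher on the 0.02 Gy array. All differences from 0 Gy use the same 0 Gy array. Of the 38 genes, 24 were lower at 0.02 Gy than at 0 Gy, 12 were higher and 2 were equal, and the median log2 difference was -0.18. Over all 23185 genes 41.6% were lower, 36.2% were higher, 22.2% were equal and the median was 0.00. At least 1.5-fold lower were 7 of the 38, against 4.27% of all genes, and at least 1.5-fold higher were 2 of the 38, against 4.59%. Without the 6 replication-independent and germ line genes the median of the other 32 was -0.31, with 23 lower and 9 higher. The 0.02 Gy array was the lowest of the 4 for 17 of the 38 genes, against 22.6% of all genes, and the 0 Gy array was the highest of the 4 for 13, against 19.9%. The 0.5 Gy array was the highest for nearly as many, 12 genes, against 19.9%, and the lowest for 5, against 21.4%. The 0.1 Gy array was the highest for 6, against 20.4%. Here and below, equal values counted as neither lower nor higher, and tied extremes as neither lowest nor highest. At least 1 tie was present in 57.4% of all genes and in 9 of the 38. The shares in all genes are therefore not on an equal footing with the counts among the 38.

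At the other doses the group stood near the unirradiated array. The median difference was -0.02 at 0.1 Gy, where 16 genes exceeded their 0 Gy value, against 38.7% of all genes, and 19 were below it, against 38.4%. At least 1.5-fold higher were 3, against 3.99% of all genes, and at least 1.5-fold lower were 3, against 4.94%. The median was 0.00 at 0.5 Gy, where 19 exceeded it, against 37.8%, and 18 were below it, against 40.9%. There 2 were at least 1.5-fold higher, against 4.36% of all genes, and 2 at least 1.5-fold lower, against 5.39%. At all 3 doses 25 of the 38 genes stayed within 1.5-fold of their 0 Gy value, against 81.7% of all genes. At least 2-fold higher than at 0 Gy were 0 of the 38 at 0.02 Gy, against 1.81% of all genes, 2 at 0.1 Gy, against 1.13%, and 1 at 0.5 Gy, against 1.23%. At least 2-fold lower were 2 at 0.02 Gy, against 1.1%, 0 at 0.1 Gy, against 1.69%, and 0 at 0.5 Gy, against 1.87%. Counts of 2 or 3 among 38 genes are too small to be set apart from the shares in all genes.

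**Figure D1:**
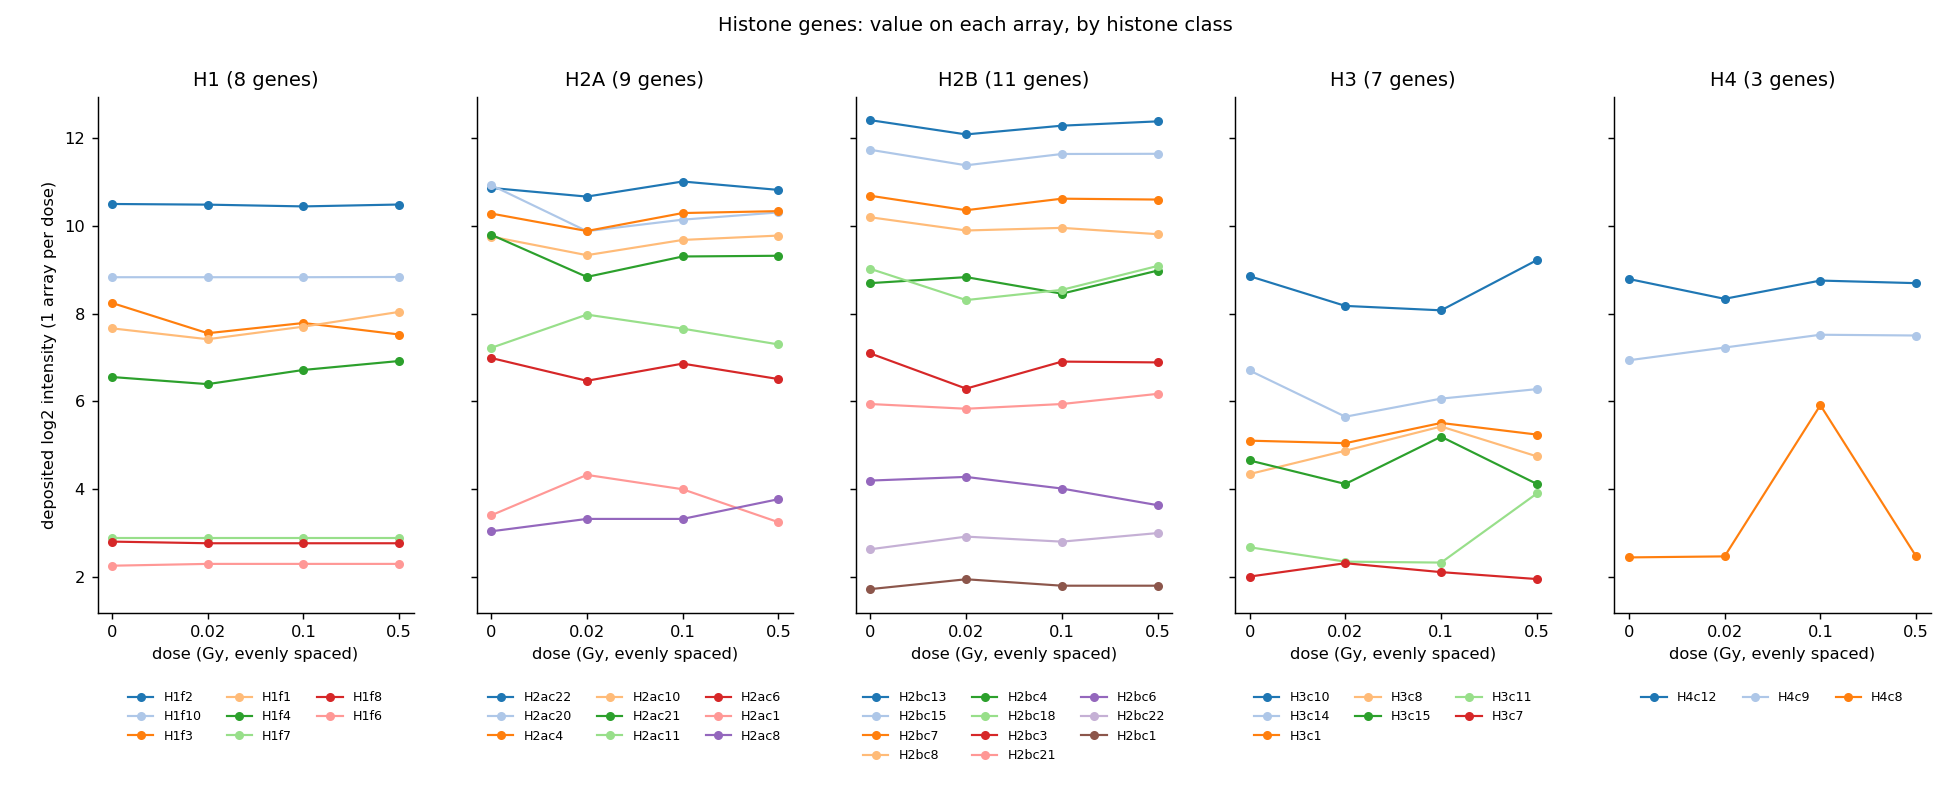
Deposited log2 intensity (vertical axis) of each histone gene on the single array of each dose (horizontal axis, evenly spaced), with 1 panel per histone class and 1 line per gene. Most H2A and H2B genes with values above 8 are lowest at 0.02 Gy, and H4c8 stands at 5.91 at 0.1 Gy alone.

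The H2A genes ranged from -1.05 to 0.92 on the scale of log2 differences at 0.02 Gy. H2ac20, which encodes a core H2A and lies on chromosome 3 from 96220413 to 96220880, had 10.93, 9.88, 10.14 and 10.31 at 0, 0.02, 0.1 and 0.5 Gy. It was highest at 0 Gy and lowest at 0.02 Gy, with differences of -1.05, -0.79 and -0.62. This was the only one of the 38 genes at least 1.5-fold lower at all 3 doses, a pattern seen in 1.52% of all genes. At least 1.5-fold higher at all 3 doses were 0 of the 38, against 0.979% of all genes. H2ac21, its neighbour from 96219885 to 96220354, had 9.80, 8.84, 9.30 and 9.32, which is 1.95-fold lower at 0.02 Gy than at 0 Gy. The stretch shown above H2ac20 and the window of H2ac21 both hold CCAAT and TATAA. These motifs are not particular to them, as 9 of 9 H2A windows held CCAAT and 8 of 9 held TATAA.

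The H2A genes of chromosome 13 with a mean of at least 8, H2ac4, H2ac10 and H2ac22, showed smaller differences in the same direction at 0.02 Gy. H2ac10 had 9.76, 9.33, 9.68 and 9.78 at 0, 0.02, 0.1 and 0.5 Gy, and H2ac4 had 10.28, 9.89, 10.30 and 10.34. Both were low on the 0.02 Gy array alone, and their other values lay close together. H2ac22, the H2A gene with the highest mean, had 10.87, 10.67, 11.01 and 10.82. H2ac6, with a mean of 6.71, had 6.99, 6.47, 6.86 and 6.51 and so was low at 0.5 Gy too.

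The remaining 3 H2A genes were higher at 0.02 Gy. H2ac11 had 7.22, 7.98, 7.66 and 7.30 at 0, 0.02, 0.1 and 0.5 Gy, a difference of 0.76 at 0.02 Gy and 0.08 at 0.5 Gy. H2ac1, the germ line gene also called Th2a, had 3.40, 4.32, 3.99 and 3.24. H2ac8 had 3.03, 3.32, 3.32 and 3.77. Both H2ac1 and H2ac8 had means below 4.06, the median of all gene means, so the size of their differences is uncertain. Over the 9 H2A genes the median difference at 0.02, 0.1 and 0.5 Gy was -0.40, 0.01 and -0.05.

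Of the 6 H2B genes with a mean of at least 8, H2bc4 was higher at 0.02 Gy than at 0 Gy and the others, H2bc7, H2bc8, H2bc13, H2bc15 and H2bc18, were lower. H2bc13, the H2B gene with the highest mean, had 12.41, 12.09, 12.29 and 12.39 at 0, 0.02, 0.1 and 0.5 Gy. H2bc15 had 11.74, 11.38, 11.64 and 11.65, and H2bc7 had 10.69, 10.36, 10.62 and 10.60. In all 3 genes the 0.02 Gy value was the lowest, with differences between -0.35 and -0.32, and the 0 Gy value the highest.

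H2bc3 and H2bc18 were the H2B genes at least 1.5-fold lower at 0.02 Gy. H2bc3, on chromosome 13 from 23746734 to 23747223, had 7.09, 6.29, 6.91 and 6.89 at 0, 0.02, 0.1 and 0.5 Gy. Only its 0.02 Gy value stood apart. H2bc18, on chromosome 3, had 9.02, 8.31, 8.54 and 9.09, lower at 0.02 and 0.1 Gy and level with 0 Gy at 0.5 Gy. H2bc8 was lower at all 3 doses, with 10.20, 9.90, 9.96 and 9.81. H2bc6 had 4.19, 4.28, 4.01 and 3.63, and the germ line gene H2bc1 had 1.72, 1.94, 1.79 and 1.79, and the means of both were below 4.06. Over the 11 H2B genes the median difference at 0.02, 0.1 and 0.5 Gy was -0.30, -0.13 and -0.03.

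Some H2B genes have a RefSeq locus at least 1 kb long. The locus of H2bc4 spans 8282 bases, H2bc21 2667, H2bc22 14079 and H2bc6 37455, whereas the other core histone genes span under 1 kb. Longer, polyadenylated transcripts are known for some clustered H2B genes. H2bc4 had 8.70, 8.83, 8.46 and 8.98 at 0, 0.02, 0.1 and 0.5 Gy, and H2bc21 had 5.94, 5.83, 5.94 and 6.17. H2bc22 had 2.62, 2.91, 2.80 and 2.99, below 4.06 on all arrays. Of these 4 genes 3 were higher and 1 lower at 0.02 Gy than at 0 Gy (median difference 0.11). Of the 26 compact core histone genes 8 were higher and 18 lower (median difference -0.33). The difference between the 4 and the 26 was not tested. Of the 4, H2bc22 and H2bc6 had means below 4.06, and of the 11 histone genes with such means 8 were higher at 0.02 Gy. Locus length and level cannot be told apart here. The 26 include the germ line genes H2ac1 and H2bc1.

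H2A and H2B genes often lie in pairs that are transcribed away from each other from a shared stretch. In 5 pairs of the set the genes lay within 400 bases of each other. At 0.02 Gy, H2ac20 was at -1.05 and H2bc21, on the other side of the 191 bases shown, at -0.11. H2ac6 was at -0.52 and H2bc4 at 0.14, H2ac22 at -0.20 and H2bc22 at 0.29, and H2ac8 at 0.28 and H2bc8 at -0.30. H2ac1 and H2bc1 were at 0.92 and 0.22. The partners thus stood on opposite sides of 0 Gy in 3 of 5 pairs at 0.02 Gy, in 1 of 5 at 0.1 Gy and in 5 of 5 at 0.5 Gy. Each of these pairs holds a gene that is dim or has a long locus.

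H3 genes were split. H3c14, on chromosome 3 from 96246685 to 96247348, had 6.70, 5.65, 6.06 and 6.28 at 0, 0.02, 0.1 and 0.5 Gy. It was 2.08-fold lower at 0.02 Gy than at 0 Gy, 1.56-fold lower at 0.1 Gy and 1.34-fold lower at 0.5 Gy. H3c10, the H3 gene with the highest mean, on chromosome 13 from 21717628 to 21718115, had 8.85, 8.18, 8.08 and 9.22. It was lower at the 2 smaller doses, with log2 differences of -0.68 and -0.78, and higher at 0.5 Gy, with 0.37. H3c15 had 4.65, 4.11, 5.19 and 4.11, with the same value at 0.02 and 0.5 Gy.

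H3c8 had 4.34, 4.87, 5.43 and 4.74 at 0, 0.02, 0.1 and 0.5 Gy, and was 2.12-fold higher at 0.1 Gy. It was lowest at 0 Gy. H3c11 had 2.67, 2.34, 2.32 and 3.90, so its difference of 1.23 at 0.5 Gy lies between values below 4.06. H3c1 had 5.10, 5.04, 5.51 and 5.24, and the highest value of H3c7 was 2.31. Over the 7 H3 genes the median difference at 0.02, 0.1 and 0.5 Gy was -0.33, 0.10 and 0.14.

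Of the 3 H4 genes, H4c8 gave the widest range of the whole set. H4c8, on chromosome 13 from 23531044 to 23531478, had 2.44, 2.46, 5.91 and 2.46 at 0, 0.02, 0.1 and 0.5 Gy. It was 11.1-fold higher at 0.1 Gy than at 0 Gy, while the 0.02 and 0.5 Gy values were identical. The other values are far below 4.06, so the fold rests on dim values. H4c12 had 8.79, 8.34, 8.75 and 8.70 and was low at 0.02 Gy alone. H4c9 had 6.94, 7.23, 7.52 and 7.50, with its lowest value at 0 Gy. Its differences of 0.58 at 0.1 Gy and 0.56 at 0.5 Gy lay just under the 1.5-fold level of 0.585. All 3 genes encode the same protein, and their patterns differ.

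The linker histone genes held both steady and lower members. H1f2, the H1 gene with the highest mean, had 10.50, 10.49, 10.45 and 10.49 at 0, 0.02, 0.1 and 0.5 Gy. Its largest difference from 0 Gy was -0.06. H1f3 had 8.24, 7.55, 7.79 and 7.52, and was 1.61-fold lower at 0.02 Gy and 1.65-fold lower at 0.5 Gy than at 0 Gy. It was the only H1 gene past 1.5-fold at any dose. H1f1 had 7.66, 7.42, 7.70 and 8.04, and H1f4 had 6.55, 6.39, 6.72 and 6.92, both highest at 0.5 Gy.

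The 4 other linker genes showed almost no difference. H1f10 had 8.83 at 0, 0.02 and 0.1 Gy and 8.84 at 0.5 Gy. H1f6, H1f7 and H1f8 stayed below 3 and kept the same value on at least 3 arrays. Ties of this kind were common in the table, with at least 1 among the 4 values in 57.4% of all genes and in 9 of the 38. Over the 8 H1 genes the median difference at 0.02, 0.1 and 0.5 Gy was -0.03, 0.00 and 0.00.

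By position, the 6 chromosome 3 genes were all lower at 0.02 Gy than at 0 Gy, against 41.6% of all genes, with a median of -0.84. At least 1.5-fold lower there were 4 of the 6, against 4.27% of all genes. Their medians were -0.49 at 0.1 Gy and -0.45 at 0.5 Gy. For the 29 genes on chromosome 13 the medians were -0.16, 0.01 and 0.02 in dose order. Of the 29, 3, 1 and 1 were at least 1.5-fold lower, against 4.27%, 4.94% and 5.39% of all genes. At least 1.5-fold higher were 2, 3 and 2, against 4.59%, 3.99% and 4.36%. The chromosome 3 genes were looked at as a group after their values were seen, so their median is a description. Whether H2ac20 and H2ac21 share probes was not tested.

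**Figure D2:**
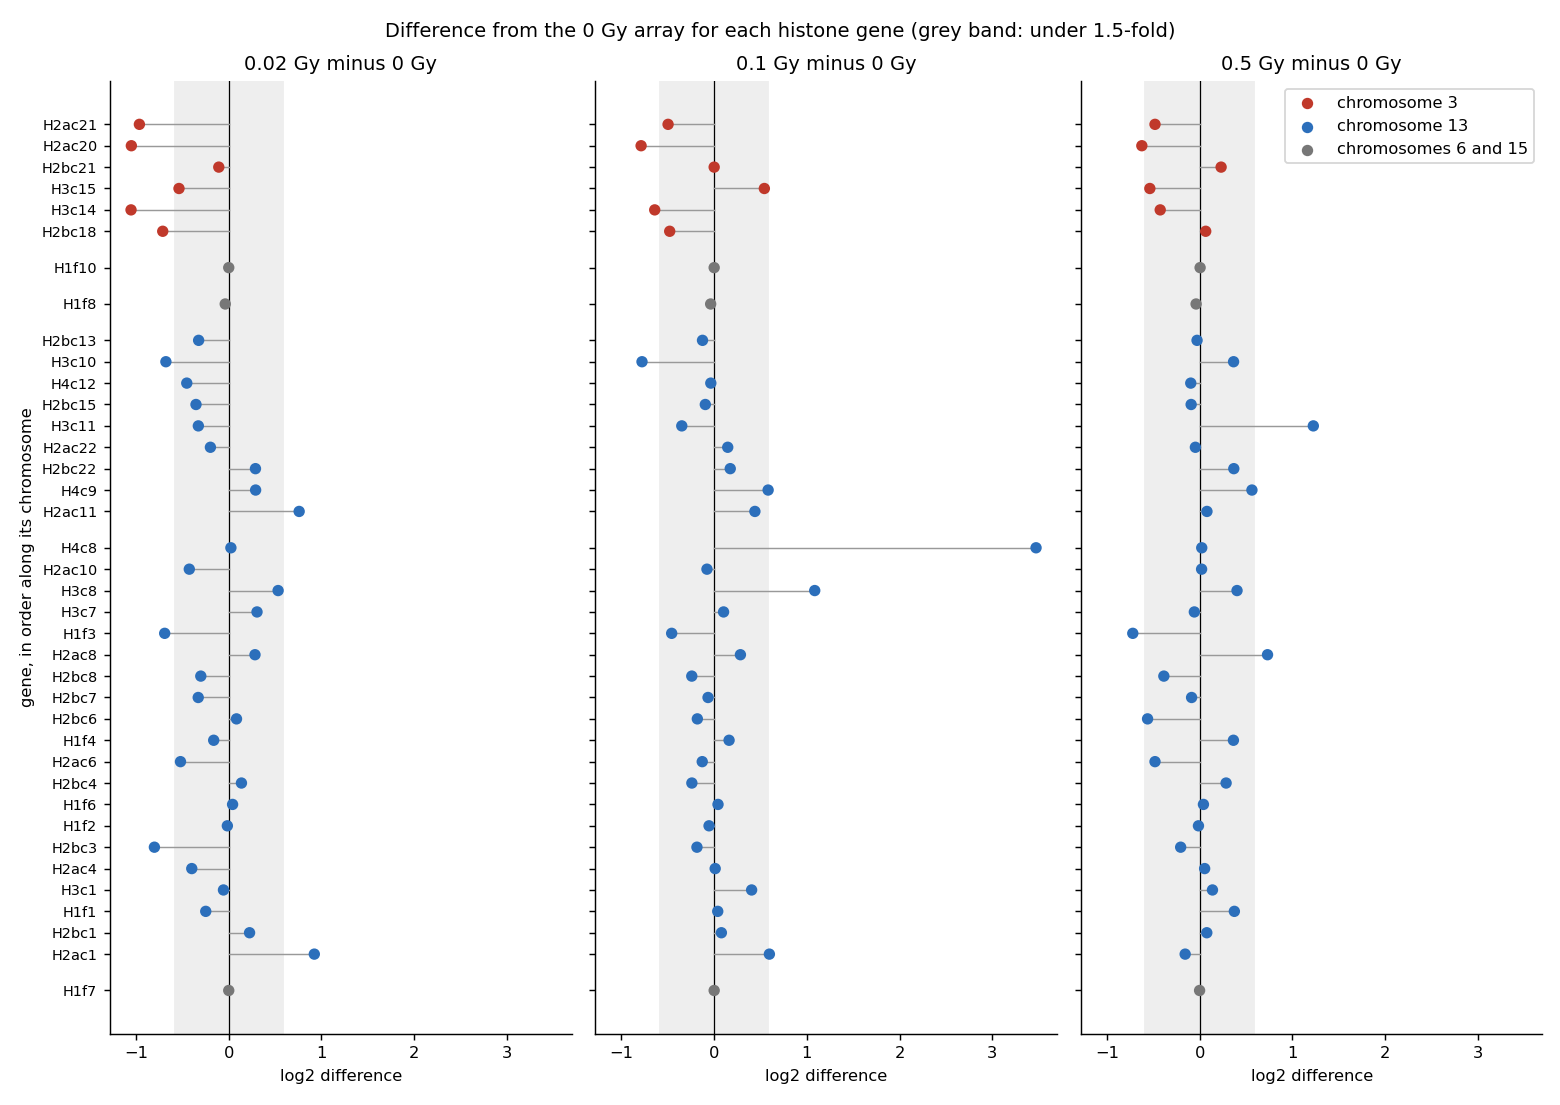
Log2 difference from the 0 Gy array (horizontal axis, the same in each panel) for the 38 histone genes in order along their chromosomes (vertical axis), with a panel for 0.02, 0.1 and 0.5 Gy. The grey band covers differences under 1.5-fold. All 6 chromosome 3 genes lie left of 0 at 0.02 Gy, and H4c8 lies at 3.47 at 0.1 Gy.

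Of the 27 histone genes with means of at least 4.06, 22 were lower at 0.02 Gy than at 0 Gy and 4 were higher. Among all genes of that level 45.5% were lower and 39.5% higher. Of the 15 histone genes with a mean of at least 8, 13 were lower at 0.02 Gy than at 0 Gy, 1 was higher and 1 was equal, with a median of -0.35. Genes of that level were lower in 59.7% of 2125 cases, with a median of -0.06. At least 1.5-fold lower were 4 of the 15, against 4.38% of genes of that level. At 0.1 Gy 12 of the 15 were lower, against 53.6%, and 2 at least 1.5-fold lower, against 3.48%, but their median was -0.10. At 0.5 Gy 9 were lower, against 48.6%, and 1 at least 1.5-fold lower, against 3.34%, and the median was -0.03. Among the 11 histone genes with means below 4.06, 8 were higher and 2 lower at 0.02 Gy (median difference 0.08), while of all genes of that level 32.9% were higher and 37.7% lower. The split is by the mean over all arrays.

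**Figure D3:**
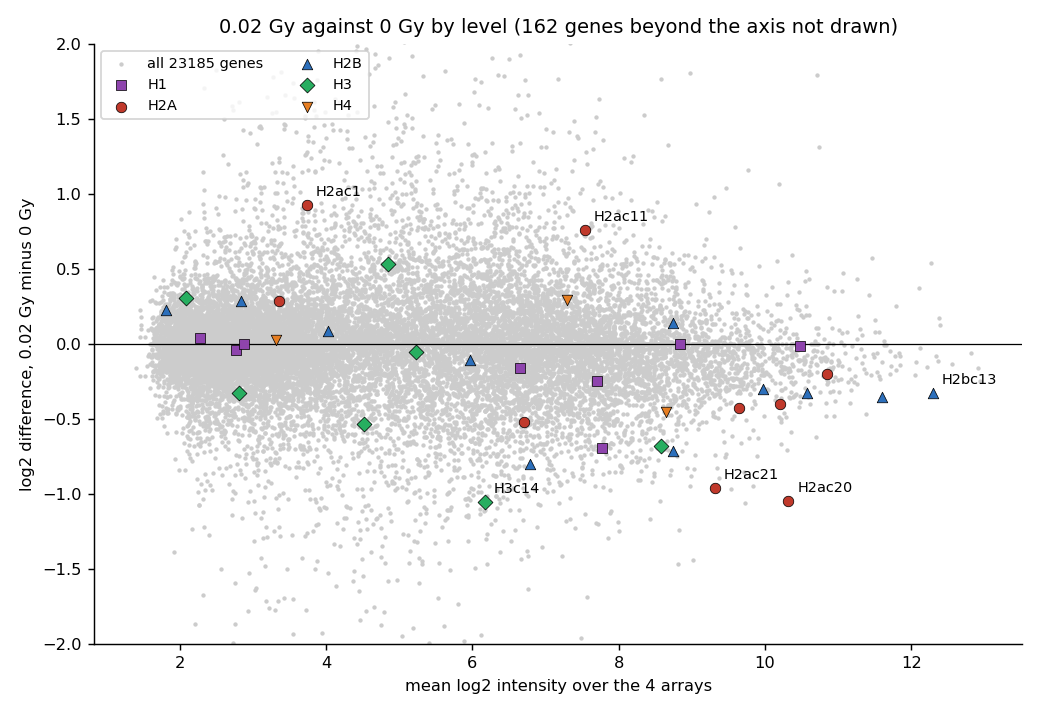
Log2 difference of 0.02 Gy minus 0 Gy (vertical axis) against the mean log2 intensity over the 4 arrays (horizontal axis) for the histone genes, coloured by class, with all 23185 genes in grey. Of all genes, 162 lie beyond the axis and are not drawn. Among the 15 histone genes at a mean of 8 or more, 13 lie below 0.

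Between irradiated arrays, which use the same 0.02 Gy array again, most histone genes were higher at the larger doses than at 0.02 Gy. At 0.1 Gy 23 of the 38 exceeded their 0.02 Gy value, against 42.1% of all genes, and 10 were below it (median difference 0.23). Of the 38, 3 were at least 1.5-fold higher, against 4.12%, and 0 at least 1.5-fold lower, against 5.5%. At 0.5 Gy 25 exceeded it, against 40.9% of all genes, and 8 were below it (median difference 0.17). At least 1.5-fold higher were 6, against 4.17%, and at least 1.5-fold lower were 3, against 5.74%. Between 0.5 and 0.1 Gy the median was 0.00, with 18 higher and 16 lower, and 37.8% of all genes were higher. There 2 were at least 1.5-fold higher, against 4.11%, and 4 at least 1.5-fold lower, against 4.41%.

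Genes that make, mature and handle histones were looked at beside them. The stem-loop binding gene Slbp had 8.77, 8.77, 9.03 and 8.92 at 0, 0.02, 0.1 and 0.5 Gy, and so was level with 0 Gy at 0.02 Gy. Lsm11 and Lsm10, which encode parts of the U7 particle that cuts histone pre-mRNA, differed from each other. Lsm11 had 5.88, 4.96, 5.93 and 5.93, low at 0.02 Gy alone, and Lsm10 had 7.84, 7.37, 7.56 and 6.74, lowest at 0.5 Gy. Of the 16 genes of histone pre-mRNA processing, 2 were at least 1.5-fold lower at 0.02 Gy, 0 at 0.1 Gy and 1 at 0.5 Gy, with 0 higher at any dose. The medians of the 16 were -0.13, 0.00 and -0.01.

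Npat, the coactivator of histone genes driven by cyclin E and CDK2, had 7.05, 6.88, 6.86 and 6.49 at 0, 0.02, 0.1 and 0.5 Gy. Ccne2, a cyclin E gene, had 7.23, 6.71, 7.27 and 7.18, while Ccne1, the other one, had 5.71, 6.18, 6.18 and 6.23. For the 9 measured genes of 10 for histone transcription the medians were -0.16, 0.04 and 0.00 in dose order, and 0 of them were past 1.5-fold. For the 9 genes of histone mRNA decay they were -0.24, 0.00 and -0.04, again with 0 past 1.5-fold. Of all genes, 81.7% stayed within 1.5-fold of 0 Gy at all 3 doses. Npat, Casp8ap2 and Eri1 each stand in more than 1 of these lists.

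Histone chaperones carry new histones to DNA. The median of 17 measured chaperone and assembly genes (18 listed) was -0.31 at 0.02 Gy. There 0 were at least 1.5-fold higher, against 4.59% of all genes, and 2 at least 1.5-fold lower, against 4.27%. These were Mms22l, with 6.87, 6.06, 6.44 and 6.36 at 0, 0.02, 0.1 and 0.5 Gy, and Asf1b, a chaperone of H3 and H4, with 7.75, 7.11, 7.75 and 7.75. The medians were -0.05 at 0.1 Gy and -0.07 at 0.5 Gy, with 0 and 1 lower at that level, against 4.94% and 5.39%.

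Histone variants listed as replication-independent, which can be deposited outside S phase too, were measured with 10 genes of 11. Their medians were -0.22, 0.12 and 0.05 in dose order. H1f10 is both in this list and among the 38 genes. H2ax, whose product is phosphorylated at DNA breaks, had 11.53, 11.06, 11.53 and 11.41 at 0, 0.02, 0.1 and 0.5 Gy. H2az1 had 11.29, 11.04, 11.16 and 11.38, and Cenpa, the centromeric H3, had 7.98, 7.65, 8.12 and 8.05. Each of these 3 was lowest at 0.02 Gy. H3f3b, which encodes the replacement histone H3.3, had 11.61, 11.86, 11.76 and 11.94 and was lowest at 0 Gy. At least 1.5-fold higher were 1 gene at 0.02 Gy, 2 at 0.1 Gy and 1 at 0.5 Gy, all of them Macroh2a2 or H3f3a. The shares of all genes were 4.59%, 3.99% and 4.36%. Macroh2a2 had 2.99, 3.66, 4.49 and 3.97, and H3f3a, another H3.3 gene, had 3.51, 3.43, 5.60 and 3.95, so both had dim arrays.

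Among 37 measured genes of DNA replication (38 listed), 11 were at least 1.5-fold lower at 0.02 Gy, against 4.27% of all genes. Higher at that level were 0, against 4.59%. Their median was -0.37 at that dose and 0.00 at both larger ones. There 2 and 0 were at least 1.5-fold higher, against 3.99% and 4.36% of all genes, and 2 and 1 lower, against 4.94% and 5.39%. Among 29 measured genes of mitosis (30 listed), 12 were at least 1.5-fold lower at 0.02 Gy and 0 higher, against the same 4.27% and 4.59%. The medians of the mitosis genes in dose order were -0.56, 0.04 and -0.12. The 12 regulators of G1 and quiescence had medians of 0.00, 0.00 and 0.01. Among them Cdkn1a, which encodes the CDK inhibitor p21, had 7.87, 9.68, 8.82 and 9.52 at 0, 0.02, 0.1 and 0.5 Gy, lowest at 0 Gy. The median of the histone genes at 0.02 Gy was thus nearer 0 than those of both lists, and nearer that of the replication list without the 6 replication-independent and germ line genes. No test of these differences was made.

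**Figure D4:**
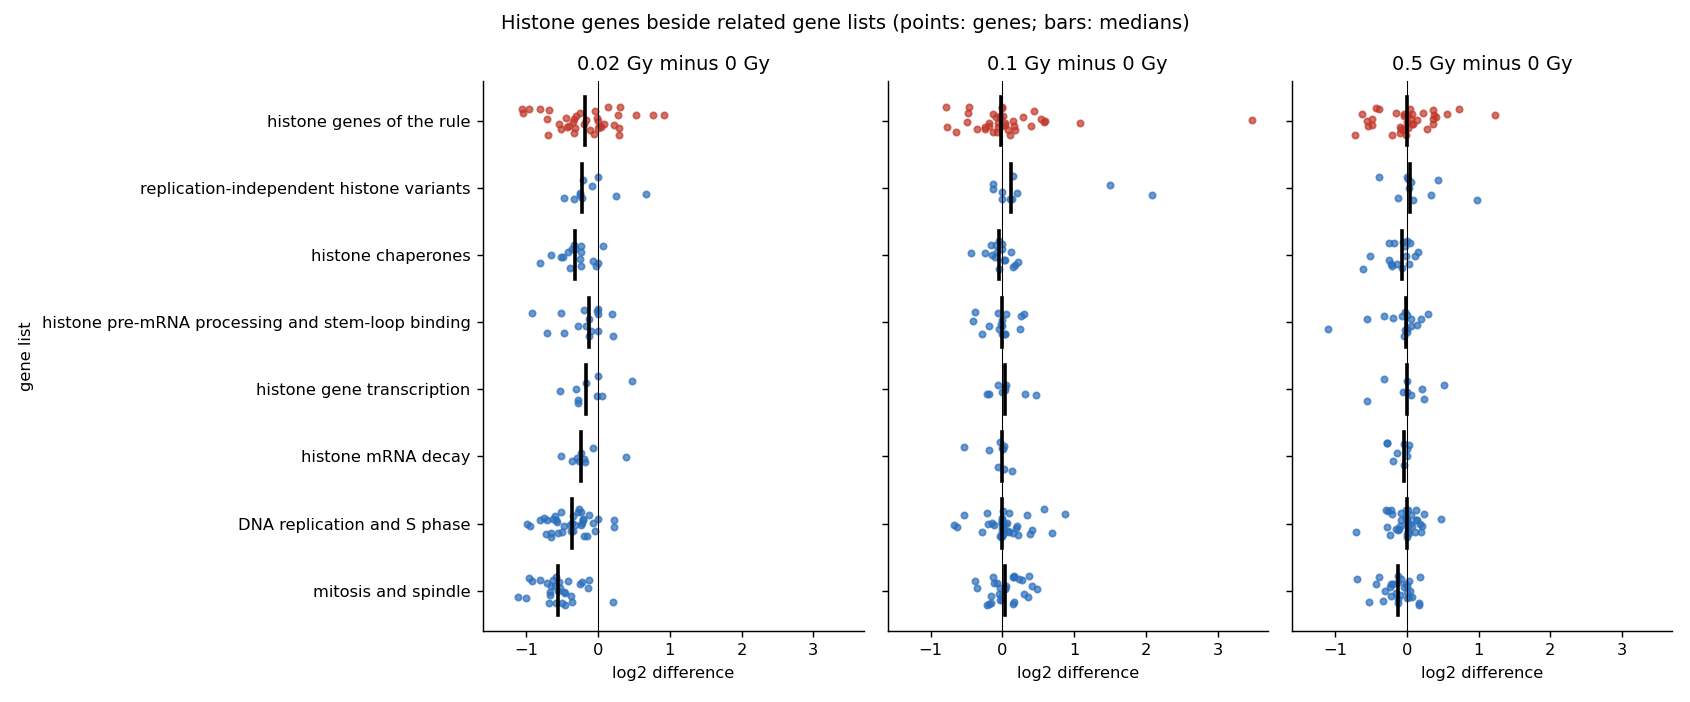
Log2 difference from the 0 Gy array (horizontal axis) of each gene in 8 lists, the histone genes on top (vertical axis, points spread for clarity), with a panel for 0.02, 0.1 and 0.5 Gy, points for genes and black bars for medians. At 0.02 Gy the medians run from -0.13 for pre-mRNA processing to -0.56 for mitosis, and the histone genes stand at -0.18.

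Markers of the sort and of other cells also differed between the arrays. Of the sort markers, Kit had 10.16, 10.57, 10.40 and 10.12 and Slamf1, which encodes CD150, 7.67, 8.65, 7.16 and 7.77 at 0, 0.02, 0.1 and 0.5 Gy. Of the genes that mark excluded cells, Cd48 had 4.13, 3.08, 4.11 and 4.13 and Flt3 had 4.46, 4.76, 5.44 and 4.76. Of 6 sort marker genes listed 5 were measured, and Ly6a was not. Cd34, which is not in the gate, had 8.68, 7.79, 9.77 and 9.70. Mean log2 levels at 0, 0.02, 0.1 and 0.5 Gy were 7.17, 7.90, 7.01 and 7.22 for 5 of 5 HSC genes and 4.11, 4.58, 6.03 and 4.92 for 9 of 9 granulocyte genes. For 6 of 8 erythroid genes the level was lowest at 0.02 Gy, with 6.21, and highest at 0.5 Gy, with 7.55. At 0.02 Gy 4 of these 6 were lower than at 0 Gy and 2 were higher, Hbb-bs among them (2.12 and 2.84 at 0 and 0.02 Gy). For 7 of 9 B and plasma cell genes the level was highest at 0.02 Gy, with 5.69, and lowest at 0.5 Gy, with 4.39. At 0.02 Gy 4 of these 7 were higher than at 0 Gy, 2 lower and 1 equal. The 0.02 Gy array thus had the highest level of the HSC genes and the 0.1 Gy array the highest of the granulocyte genes. Levels were 4.36, 5.07, 4.02 and 4.06 for 5 of 5 monocyte genes, 4.42, 4.38, 4.57 and 4.70 for 5 of 5 T and NK cell genes, and 8.85, 8.74, 8.16 and 8.35 for 5 of 5 megakaryocyte genes. At 0.02 Gy 2 of the 5 monocyte genes, Cd68 and Ly6c2, were higher than at 0 Gy and 3 were equal. Of the T and NK cell genes, Nkg7 had 8.90, 8.38, 9.36 and 9.92 and differed most between the arrays. Ngp, Ltf, Ms4a1, Ebf1, Csf1r, Ccr2, Adgre1, Cd3e, Cd3g and Cd8a were below 4.06 on all arrays. The part of these differences in the histone values was not tested.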

How the data were processed

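Expression was measured on 4 arrays, 1 per dose, grouped by the irradiation dose in the labels. Per the labels, RNA was amplified and labelled as biotinylated cDNA by an Affymetrix kit of the whole-transcript type, and the submitters' processing notes name Partek. The deposited values are taken as log2 intensities per Entrez gene probe set from their range (1.22 to 13.0), and the log base is not stated. How the authors corrected background, normalized and defined probe sets is not given in these sources. Of 25206 probe sets, 23185 have 1 symbol, 0 several and 2021 none. Values were used as deposited, with no filter.

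Differences were computed per gene in Python 3.11.15 (pandas 2.3.3). Genes were called at 1.5-fold, and the same counts were taken over all 23185 genes. No test was made, since each dose has 1 array. Computation of medians and counts was tested on simulated data. Alternatives were 3 scalings (median centring, quantile and cyclic loess in limma 3.58.1, R 4.3.3), a filter at the median of gene means (4.06), a 2-fold threshold, 32 members without replication-independent and germ line genes, and 29 members with 4 different values. Gene positions, promoter sequences and names come from RefSeq GRCm38.p6.

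The members and lists were chosen with earlier results of these data known. Genes named are the 6 highest and 6 lowest members at each dose, every H1 gene, the brightest of each class and those past 1.5-fold at all doses, with up to 3 per other list and dose. The text gives part of them. H2ac4, H2ac10, H2bc1, H2bc4, H2bc7, H2bc8, H2bc15, H2bc21, H3c1, H2az1, H3f3b, Slbp and markers low on all arrays were named outside this rule, after their values were seen.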

Additional observations from a re-analysis of the deposited data

How the results depend on the processing

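The differences rest on single arrays, so no spread within a dose is known, and dim genes limit the fold changes. No paired analysis was possible because each dose has 1 array and the results come from no test. A median was taken to have moved when it changed by at least 0.1, and a count when it changed by more than 1.5-fold. With median centring and with cyclic loess none of the 12 medians and counts moved, and with quantile normalization 1 did, as 5 genes in place of 3 were at least 1.5-fold higher at 0.1 Gy. The shift of the median of all genes under these scalings was at most 0.05. The median at 0.02 Gy minus 0 Gy, -0.18 in the report, was -0.33 with the filter on low values (27 genes), -0.31 without replication-independent and germ line members and -0.32 over members with 4 different values. With the filter, the number at least 1.5-fold higher was 1 at 0.02 Gy, 1 at 0.1 Gy and 0 at 0.5 Gy, and the median of 0.5 Gy minus 0.02 Gy was 0.27. The number at least 1.5-fold higher was 1 at 0.02 Gy without the replication-independent and germ line members, and 1 at 0.5 Gy over members with 4 different values. These changes follow from the genes left out. At a 2-fold threshold 2 genes were lower and 0 higher at 0.02 Gy, 0 were lower and 2 higher at 0.1 Gy, and 0 were lower and 1 higher at 0.5 Gy, and the report gives the shares in all genes beside them.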

Other observations

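Histone genes of the table whose RefSeq synonyms include an older clustered histone name, but whose present symbols the rule does not take, number 5 and were looked at after the other values were seen. H2bu2, an H2B gene on chromosome 11 from 58948911 to 58949372 that was called Hist3h2ba, had 7.76, 6.35, 7.38 and 7.39 at 0, 0.02, 0.1 and 0.5 Gy. It was lowest at 0.02 Gy, with a difference of -1.41 from 0 Gy, beyond that of any of the 38 genes on the lower side. H4f16, a lone H4 gene on chromosome 6, had 5.27, 4.65, 5.02 and 5.02 and was also lowest at 0.02 Gy. H2aw, an H2A gene on chromosome 11 close to H2bu2, had 6.90, 6.90, 6.95 and 6.71, with the same value at 0 and 0.02 Gy. H2bu1-ps, also on chromosome 11, had 4.15, 4.18, 4.55 and 4.51 and was lowest at 0 Gy. H2af-ps2, on chromosome 13, had 3.21, 2.75, 3.21 and 3.21.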
